A study of Mus musculus with 12 samples.

Results

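The subunits of the mitochondrial respiratory chain and of ATP synthase were followed in liver RNA from mice with an inducible Fra-1 or Fra-2 transgene. Members were the protein-coding rows whose symbol names a subunit of complexes I to V (the Nduf, Sdh, Uqcr, Cox4 to Cox8, Atp5 and mt- families); the rule reads symbols and gene types. The rule found 99 of 55421 rows, of which 86 are encoded in the nucleus and 13 in the mitochondrial genome. Complex I held 36 nuclear and 7 mitochondrial rows, complex II 4 nuclear rows, complex III 8 and 1, complex IV 20 and 3, and complex V 18 and 2. Ndufa4 and Ndufa4l2 were placed with complex IV, where the Ndufa4 protein is found.

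The 12 male mice had a C57BL/6 background and came from 2 related strains, Fra1hep and Fra2hep, with 3 controls and 3 mutants each. All mice, controls included, had doxycycline removed at 3 weeks of age, which switched the transgene on in the mutants; controls were littermates from the same cage. Titles and design text place sampling 2 months later, but the treatment field reads 9 months for the 3 Fra2 mutants and 2 months for their controls, so age and transgene cannot be told apart there if that label is right. The labels describe the tissue as liver, mostly hepatocytes, and do not name the promoter that drives the transgene or the genotype of the controls at each allele. In such bulk tissue, fewer cells of a type and less RNA per cell cannot be told apart.

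The respiratory chain passes electrons from NADH (complex I) or succinate (complex II) through complexes III and IV to oxygen, and the proton gradient that complexes I, III and IV build drives ATP synthesis by complex V. Most subunits are nuclear genes whose proteins are imported, whereas the core subunits of complexes I, III, IV and V that sit deep in the inner membrane are transcribed inside the organelle from its own genome. Complex II is wholly nuclear. Liver carries the general isoforms of several complex IV subunits, and heart and skeletal muscle carry others.

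Only 7 of the 13 mitochondrial members were measurable. mt-Co2, mt-Atp6 and mt-Nd3 had 1 count each over all 12 libraries, and mt-Co3, mt-Atp8 and mt-Nd4l had 0, where a count of 0 allows up to 3 counts, or 1.36e-06% of all 220490554 counts. All other mitochondrial members were among the abundant RNAs of the table, with the exception of mt-Nd6. For 5 of the 6 genes at or near 0, nearly the whole transcript also exists as an annotated nuclear pseudogene in a single block on chromosome 1 (GRCm38). These copies lay on the minus strand between 24611535 and 24616197, and they were at or near 0 counts as well, with 158 counts for Gm28437 and at most 32 for each of the other 4 over the 12 libraries. The beginnings of mt-Co2 and mt-Nd3 are shown beside those of their chromosome 1 copies, since the pairs are nearly the same sequence. Capitals mark the only base at which the shown stretches of mt-Nd3 and its copy differ; sequences are from GENCODE M21 transcripts on GRCm38.
mt-Co2 (chrM:7013-7072, plus strand): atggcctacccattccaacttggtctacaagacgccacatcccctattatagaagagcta
Gm28661 (chr1:24615506-24615565, minus strand): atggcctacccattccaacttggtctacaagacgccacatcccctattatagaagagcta
mt-Nd3 (chrM:9459-9518, plus strand): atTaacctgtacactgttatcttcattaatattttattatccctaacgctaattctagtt
Gm28438 (chr1:24613060-24613119, minus strand): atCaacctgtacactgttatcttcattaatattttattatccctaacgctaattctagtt

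Over their whole aligned length, mt-Co2 and Gm28661 were identical at 681 of 681 bases, mt-Co3 and Gm28437 at 783 of 783, mt-Atp6 and Gm10925 at 678 of 678, and mt-Nd4l and Gm10222 at 294 of 294. mt-Nd3 and Gm28438 had 1 mismatch in 345 bases. Of the 50-base stretches of these 5 mitochondrial transcripts, 98.0% or more were found in a transcript of another gene. mt-Atp8, which lies between mt-Co2 and mt-Atp6 and overlaps the latter, had no annotated copy in the set of transcripts. mt-Nd4 and mt-Co1, with 62.2% and 51.1% of their stretches shared, were counted, whereas mt-Cytb, mt-Nd1 and mt-Nd6 shared none. The sources used here do not say how reads matching several places were handled, and the part of this handling in the counts was not tested. The levels of mt-Co1 and mt-Nd4 are uncertain for the same reason, and every mitochondrial sum given here rests on 7 genes, none of them in complex V.

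**Figure D1:**
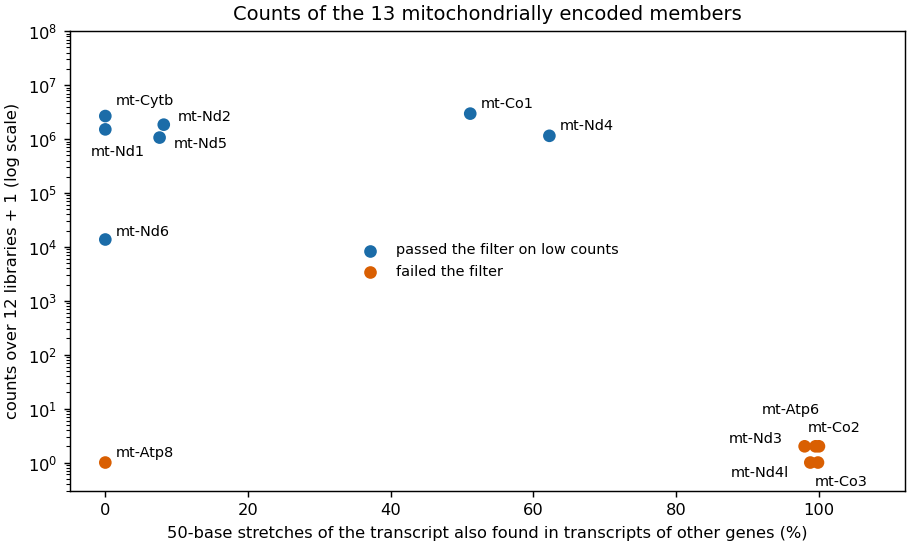
Counts of the 13 mitochondrially encoded members summed over 12 libraries, plus 1, on a log axis, against the percentage of each transcript's 50-base stretches that also occur in transcripts of other genes. Of the 6 members that failed the filter on low counts, 5 sit at the right with 98.0% or more shared and mt-Atp8 sits at 0%.

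The transgenes matched the labels. Fosl1, which encodes Fra-1, had 9.41, 10.2 and 12.8 CPM (counts scaled to a common library total, with TMM factors that allow for composition) in Fra1 mutants and at most 0.0538 in their controls. Fosl2, which encodes Fra-2, had 398, 421 and 421 CPM in Fra2 mutants. Fra2 control 2 stood apart with 48.1 CPM of Fosl2 against 12.2 and 16.03 in the other 2 controls. Libraries held 16834041 to 20464807 counts. Of the members, 86 passed the filter on low counts (79 nuclear, 7 mitochondrial) among 14076 tested genes.

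In Fra1 mutants, every tested nuclear subunit had a lower fitted level than in controls, but the size was small and almost no single gene passed the test. All 79 nuclear log2 fold changes were negative, with a median of -0.28, against 0.01 over all tested genes. Summed over the nuclear members, the level was 14709, 11982 and 12091 CPM in the controls and 10496, 10904 and 11470 CPM in the mutants. All mutants lay below all controls, by a mean of 0.23 on the log2 scale. As a share of unscaled counts the groups overlapped, at 1.34%, 1.19% and 1.21% in controls and 1.14%, 1.14% and 1.23% in mutants. Without any scaling factor the median over all genes was 0.15 (log2), and the nuclear median was -0.27 relative to it with all 79 below it, but only 70 of the 79 then had a value below 0.

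The 7 mitochondrial members did not show such a shift together. Their summed level was 57365, 55244 and 51490 CPM in Fra1 controls and 57426, 41804 and 48109 CPM in Fra1 mutants, so the groups overlapped. The median log2 fold change was -0.16, with 5 of 7 below 0. The log2 ratio of mitochondrial to nuclear summed counts, which no scaling affects, was 1.96, 2.20 and 2.09 in controls and 2.45, 1.94 and 2.07 in mutants. Its mean difference of 0.07 was smaller than the SD of 0.27 among the mutants (n = 3). For all members together, a difference between the nuclear and mitochondrial sets was therefore not larger than the spread between replicates. By complex, the mean Fra1 difference of this ratio was 0.21 in complex I, -0.09 in complex III and -0.01 in complex IV. In complex I the SD was 0.21 in controls and 0.21 in mutants. The groups overlapped in each of these complexes.

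**Figure D2:**
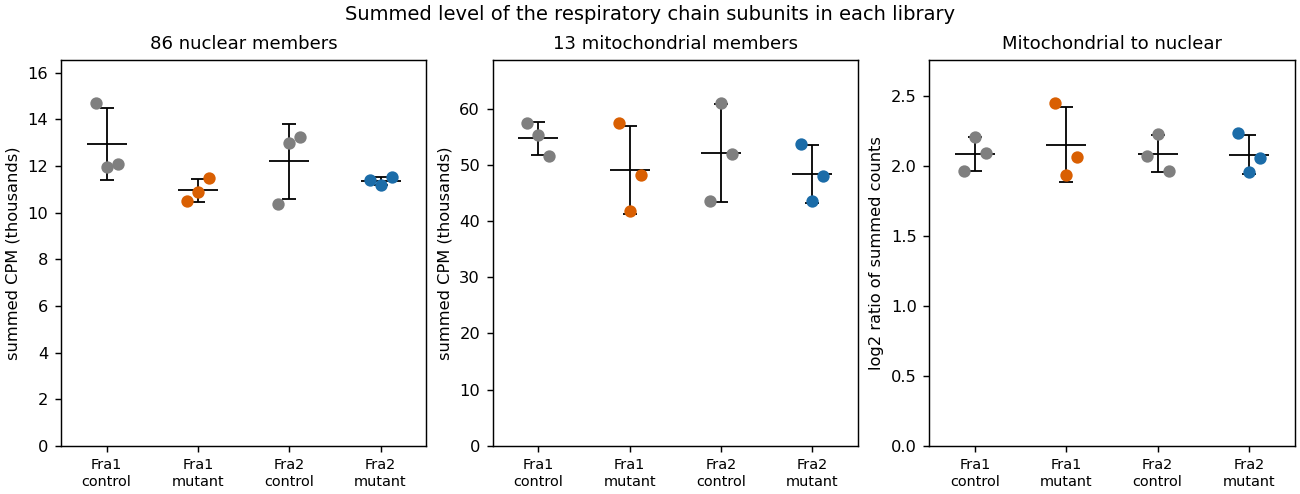
Summed CPM of the nuclear members (left) and of the mitochondrial members (middle), and the log2 ratio of their summed counts (right), in each library. Points are libraries, the horizontal line is the group mean and bars are SD (n = 3); Fra1 mutants lie below Fra1 controls for the nuclear sum with TMM scaling, and groups overlap in the other panels and in Fra2.

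In the Fra1 comparison, 1 of the 86 members passed an edgeR adjusted p of 0.05, against 3.84% of all tested genes (540). It was Atp5g1, described with complex V. At an unadjusted p under 0.05 there were 23 members, all nuclear and all lower, against 16.3% of all tested genes (2296). Among the nuclear members 48 of 79 had all 3 mutants below all 3 controls, against a background of 9.98% of all genes; no mitochondrial member did. Without a scaling factor the count was 20, against 4.45% of all genes.

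One control carried much of the size of this shift. Fra1 control 1 had the highest level of all 12 libraries for 61 of the 79 nuclear members, and the highest of the 3 Fra1 controls for 76. Without it the nuclear median was -0.15, with 76 of 79 below 0. Among the 3 Fra1 controls it was also highest for 4 of the 7 mitochondrial members, but over all 12 libraries it was highest for none of them and lowest for 1, mt-Nd5. Within the Fra1 mutants the genomes differed in order: all 7 mitochondrial members were highest in mutant 1 and lowest in mutant 2, whereas 54 of the 79 nuclear members were highest in mutant 3 and 47 were lowest in mutant 1.

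In Fra2 mutants the nuclear shift was smaller. The nuclear sum was 10363, 12993 and 13248 CPM in controls and 11418, 11189 and 11528 CPM in mutants, with control 1 below every mutant. The median of the 79 nuclear log2 fold changes was -0.12, with 72 below 0, and that of the 7 mitochondrial ones was -0.10, with 6 below 0; over all genes it was -0.01. Mitochondrial sums of 43504, 60991 and 51827 CPM in controls and 53736, 43501 and 47904 CPM in mutants overlapped. By edgeR 0 of the 86 members were called, against 1.07% of all genes (150); DESeq2 and limma-voom also called 0, and 2 members had an unadjusted p under 0.05, against 11.5% of all genes (1613). All 3 mutants lay below all controls for 2 nuclear members, Cox7a1 and Cox7a2l, against 8.17% of all genes.

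The Fra2 controls themselves decided the size of the shift. Control 1 was the lowest of the 3 Fra2 controls for 76 of 79 nuclear and 7 of 7 mitochondrial members, and control 2 the highest for 64 and 7. Without control 1 the nuclear median was -0.23, and without control 2, the library with more Fosl2, it was -0.04 with 50 of 79 below 0. Without control 2 the mitochondrial median was 0.02.

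Whether the 2 strains differed was tested directly. The nuclear log2 fold changes were higher in Fra2 than in Fra1 for 75 of 79 members, with a median difference of 0.15, but by edgeR 0 of 86 members were called for the difference, against 0.0355% of all genes (5). DESeq2 and limma-voom called 0 as well, and 1 member, Ndufb3, had an unadjusted p under 0.05, against 6.32% of all genes. Fra2 controls were also lower than Fra1 controls in fitted level for 75 of 79 nuclear members, with a median of -0.13; edgeR called 0.0% of all genes and 0 members there, DESeq2 and limma-voom called 0 members, and 2 members, Cox7a1 and mt-Nd6, had an unadjusted p under 0.05, against 5.35% of all genes. Both of these contrasts share the control libraries with the strain comparisons.

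**Figure D3:**
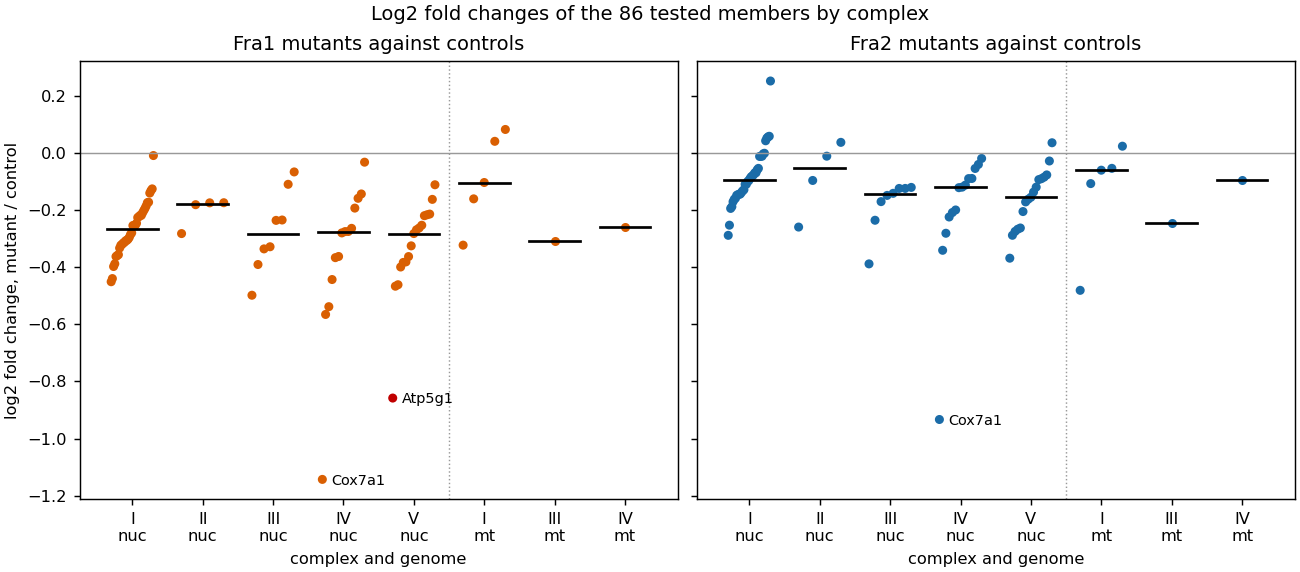
Log2 fold change of each tested member, mutant over control, by complex and by genome (nuc, nuclear; mt, mitochondrial), in Fra1 (left) and Fra2 (right). Points are genes in order of value, horizontal lines are medians, and the red point is Atp5g1, called in Fra1; with TMM scaling all nuclear points lie below 0 in Fra1, and 70 of 79 do without a scaling factor.

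Complex I, the NADH dehydrogenase, is the largest of the 5. Its 36 nuclear members had a median of -0.27 in Fra1 and -0.09 in Fra2. With TMM scaling 21 of 36 had all Fra1 mutants below all Fra1 controls, against 9.98% of all genes. Over all nuclear members this count was smaller without a scaling factor. Ndufa11, an accessory subunit of the membrane arm, had 61.1, 51.8 and 47.1 CPM in Fra1 controls and 38.6, 42.5 and 43.6 CPM in mutants. The groups did not overlap, and the log2 fold change of -0.36 (SE 0.12) had an adjusted p of 0.127. Ndufs7, which binds the iron-sulfur cluster nearest to ubiquinone, went from 97.6, 74.5 and 72.9 CPM in controls to 57.0, 61.7 and 68.4 CPM in mutants. Its log2 fold change was -0.39 (SE 0.14, adjusted p 0.164) in Fra1 and -0.25 (SE 0.14, adjusted p 0.532) in Fra2.

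Ndufb3, another membrane arm subunit, was the complex I member with the widest gap between strains. It had 45.7, 35.2 and 42.7 CPM in Fra1 controls, 29.8, 25.7 and 35.6 CPM in Fra1 mutants, 31.3, 38.8 and 37.5 CPM in Fra2 controls and 40.7, 34.4 and 36.9 CPM in Fra2 mutants. One Fra1 mutant lay above the lowest control, and the Fra2 groups overlapped. The difference between the strains was 0.50 (log2, 95% interval 0.05 to 0.95), with an adjusted p of 0.730. Ndufa5 had the largest negative Fra2 value of the complex, -0.29 (SE 0.18, adjusted p 0.605). Ndufs5 had all Fra2 mutants above all Fra2 controls, at 10.7, 11.3 and 9.66 CPM against 8.17, 9.38 and 9.07 CPM. It was the only 1 of the 79 tested nuclear members to do so, against 1311 of all 14076 tested genes. Its log2 value of 0.25 (SE 0.16) had an edgeR adjusted p of 0.636, and 21.7% of its 50-base stretches are shared with BC002163.

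Of the mitochondrial complex I members, mt-Nd1, mt-Nd2, mt-Nd4 and mt-Nd5 had between 4107 and 9898 CPM in the 12 libraries. Their groups overlapped in both strains. mt-Nd6 is the one protein gene read from the opposite strand of the circle. Its counted level per length was far lower, at 120 CPM per kb of exon against 2645 to 8089 for the other 4. The libraries were of polyadenylated RNA, and the part of this in the level of mt-Nd6 was not tested. mt-Nd6 had 51.2, 72.6 and 44.6 CPM in Fra1 controls and 53.3, 34.2 and 47.1 CPM in Fra1 mutants. In Fra2 it had 53.2, 111 and 93.1 CPM in controls and 51.2, 64.6 and 68.8 CPM in mutants. The log2 fold change was -0.32 (SE 0.27) in Fra1 and -0.48 (SE 0.27) in Fra2, and that between the controls was 0.61 (SE 0.27); the adjusted p values were 0.611, 0.563 and 0.866. Its end overlaps mt-Nd5 on the other strand, and the sources used here do not say whether counting used strand.

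Complex II, succinate dehydrogenase, which is also an enzyme of the citric acid cycle, had 4 nuclear members and the smallest nuclear median, -0.18 in Fra1 and -0.05 in Fra2. Sdhd, a membrane anchor, had 250, 228 and 211 CPM in Fra1 controls and 186, 195 and 185 CPM in mutants. These groups did not overlap, with a log2 fold change of -0.28 (SE 0.15, adjusted p 0.391). In Fra2 the value was -0.26 (SE 0.15, adjusted p 0.579), and control 3 at 293 CPM lay above the other 2 controls at 192 and 225 CPM.

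In complex III, the cytochrome bc1 complex, the nuclear median was -0.28 in Fra1 and -0.15 in Fra2. All 8 nuclear members were below 0 in both. Uqcr11, a small accessory subunit, had 133, 93.5 and 98.1 CPM in Fra1 controls and 72.4, 77.3 and 80.4 CPM in Fra1 mutants, and 78.3, 118 and 97.8 CPM in Fra2 controls against 73.1, 70.6 and 80.7 CPM in Fra2 mutants. It was lower in every Fra1 mutant, and in Fra2 only control 1 fell within the range of the mutants. The log2 fold changes were -0.50 (SE 0.16, adjusted p 0.137) and -0.39 (SE 0.16, adjusted p 0.390). Uqcrq, another small subunit, had -0.39 (SE 0.18, adjusted p 0.306) in Fra1 and -0.24 (SE 0.18, adjusted p 0.691) in Fra2.

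mt-Cytb, the mitochondrially encoded cytochrome b at the core of complex III, had the highest counted level per length of all members, at 10660 CPM per kb. That ranking is uncertain, since mt-Co1, at 8729 CPM per kb, shares 51.1% of its 50-base stretches with other genes. mt-Co2, mt-Co3 and mt-Atp6 were not measurable. mt-Cytb had 15579, 13757 and 11813 CPM in Fra1 controls and 13990, 8936 and 10316 CPM in Fra1 mutants. In Fra2 it had 10351, 15861 and 12833 CPM in controls and 12513, 9521 and 10865 CPM in mutants. Both pairs of groups overlapped, and the log2 fold changes of -0.31 and -0.25 (SE 0.21 each) had adjusted p values of 0.521 and 0.743.

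Complex IV, cytochrome c oxidase, is where liver and muscle isoforms part. The general forms Cox4i1, Cox6a1, Cox6b1, Cox7a2, Cox7b and Cox8a had 233, 334, 299.5, 168, 125 and 207 CPM per kb on average. The muscle, testis or lung forms failed the filter on low counts: Cox4i2 had 36 counts over 12 libraries, Cox6a2 20, Cox6b2 61 and Cox8b 5, and Cox7b2 and Cox8c had 0. Cox7a1, the heart and muscle form of subunit 7a, passed the filter at 1.98 CPM per kb. It had 40, 35 and 31 counts in Fra1 controls, 18, 20 and 13 in Fra1 mutants, 15, 16 and 17 in Fra2 controls and 9, 7 and 9 in Fra2 mutants.

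Cox7a1 thus had low counts but no overlap between mutants and controls in either strain. The log2 fold change was -1.14 (SE 0.29, adjusted p 0.0543) in Fra1 and -0.93 (SE 0.32, adjusted p 0.264) in Fra2, the lowest value of all members in both, and DESeq2 called it in Fra1 with an adjusted p of 0.0420 (0.0420 to 0.201 over the alternatives). Fra2 controls were also below Fra1 controls, by a log2 value of -1.17 (SE 0.29, adjusted p 0.866), and the Fra2 controls, at 0.828, 0.893 and 0.918 CPM, lay within the range of the Fra1 mutants, 0.660 to 1.05 CPM. Markers of skeletal muscle were Acta1, Myh4, Ckm, Tnnt3 and Mylpf, and only 1 of these 5 passed the filter on low counts. They summed to 1.08 to 1.29 CPM in Fra1 controls and 1.02 to 1.53 in Fra1 mutants. In Fra2 the sums were 0.702 to 1.17 CPM in controls and 0.675 to 1.15 in mutants. The part of muscle cells in the Cox7a1 values was not tested. Of the 4 adipocyte markers Lep was at 0, and their sum was at most 0.0653 CPM.

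Among the general complex IV subunits, Cox7b had 226, 162 and 156 CPM in Fra1 controls and 128, 119 and 128 CPM in mutants. This gap without overlap gave a log2 fold change of -0.54 (SE 0.18, adjusted p 0.142). Cox8a, with 175, 141 and 143 CPM in controls and 115, 115 and 125 CPM in mutants, had -0.37 (SE 0.14, adjusted p 0.202). In Fra2, Cox6c had -0.28 (SE 0.20, adjusted p 0.666). Cox7a2l had 47.9, 38.3 and 38.6 CPM in Fra1 controls and 44.5, 35.2 and 42.2 CPM in Fra1 mutants, which overlapped. It had the smallest Fra1 difference of the nuclear members of the complex.

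mt-Co1, the catalytic subunit of complex IV, had 15726, 15016 and 14066 CPM in Fra1 controls and 14689, 9853 and 12847 CPM in Fra1 mutants. Mutant 1 lay within the controls, and the log2 fold change was -0.26 (SE 0.18, adjusted p 0.509). The value is close to the nuclear median of the complex, -0.28, in Fra1.

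Complex V, ATP synthase, held Atp5g1, the only member that edgeR called. It is 1 of 3 genes that encode the same mature subunit c, the protein of the rotating membrane ring, with different import signals. It had 10.8, 7.27 and 8.39 CPM in Fra1 controls and 4.27, 4.90 and 5.38 CPM in Fra1 mutants, with no overlap. It fell by 0.86 on the log2 scale (SE 0.21, 95% interval -1.32 to -0.40), with an edgeR adjusted p of 0.0453. The call was lost in 15 of 21 alternatives, among them limma-voom and the loss of any single Fra1 library, and the adjusted p ranged from 0.00509 to 0.170. In Fra2 it had 6.30, 8.54 and 7.88 CPM in controls and 6.48, 4.96 and 7.32 CPM in mutants, a log2 fold change of -0.28 (SE 0.21, adjusted p 0.693). The strains differed by 0.58 (95% interval -0.06 to 1.23, adjusted p 0.819).

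The other subunit c genes carried different amounts of RNA. Atp5g3 had 179 CPM per kb against 1.40 for Atp5g1 and 0.524 for Atp5g2. Atp5g3 had 493, 385 and 421 CPM in Fra1 controls and 274, 319 and 350 CPM in mutants, again without overlap. Its log2 fold change was -0.46 (SE 0.15, adjusted p 0.139) in Fra1 and -0.29 (SE 0.15, adjusted p 0.525) in Fra2, and DESeq2 called it in Fra1 with an adjusted p of 0.0446 (0.0446 to 0.387 over the alternatives). Atp5g2 had only 7 to 25 counts per library; its Fra1 groups did not overlap, at 1.18, 1.18 and 1.35 CPM in controls and 0.821, 0.895 and 1.12 CPM in mutants, and its Fra2 groups did. Of their 50-base stretches, Atp5g1 shared 11.1% with other genes (6.86% with the pseudogene Gm10039), Atp5g2 shared 38.3% (36.7% with the pseudogene Gm10175) and Atp5g3 none.

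Over all 17 tested nuclear members of complex V, the subunit c genes included, the median was -0.28 in Fra1 and -0.16 in Fra2. Atp5k, the small subunit e, had 123, 92.9 and 93.9 CPM in Fra1 controls and 76.7, 76.2 and 82.0 CPM in mutants, a log2 fold change of -0.40 (SE 0.14, adjusted p 0.179). Atp5a1, which forms the catalytic head with Atp5b, had the highest level per length of all nuclear members, 339 CPM per kb. It had 1180, 1055 and 1091 CPM in Fra1 controls and 956, 907 and 1003 CPM in mutants, without overlap. A second row with the symbol Atp5o had 0 counts.

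**Figure D4:**
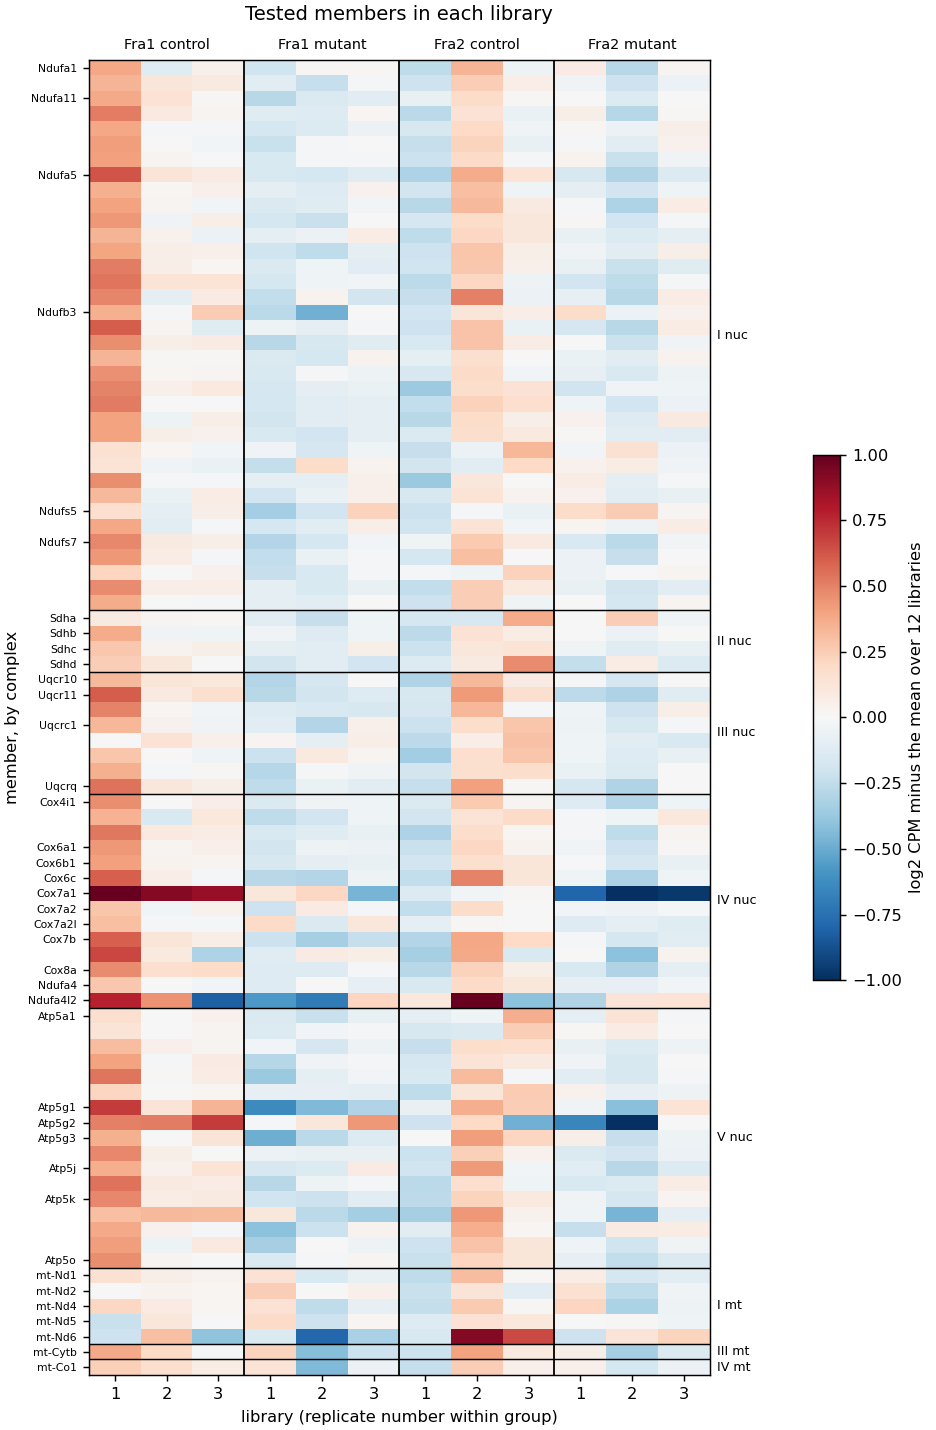
Log2 CPM of each of the 86 tested members in each of the 12 libraries, minus the member's mean over the libraries; rows are grouped by complex and genome, columns by group, and the members named by the fixed rule are labelled. Fra1 control 1 is red for most nuclear rows and Fra2 control 1 is blue for most nuclear and mitochondrial rows; within the Fra1 mutants all 7 mitochondrial rows at the bottom are highest in mutant 1.

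The nuclear members also split among themselves within the Fra2 controls. Control 2 was the highest of the 3 for 64 members and control 3 for 15. The median exon length of those 15, a set made from these values, was 2634 bases against 1486 for the 64.

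Transcript length moved with the fold changes in Fra1 over all genes. Tested protein-coding genes with under 1 kb of exon had a median of -0.20 (223 genes), those of 1 to 2 kb -0.09, those of 2 to 4 kb -0.02 and those of 4 kb and over 0.06. Nuclear members lay below each of these, at -0.31 (18 genes), -0.28 (32), -0.22 (19) and -0.24 (10). In Fra2 the genes under 1 kb had -0.07 and the members of that length -0.10. The part of transcript length in the members' values was not tested.

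**Figure D5:**
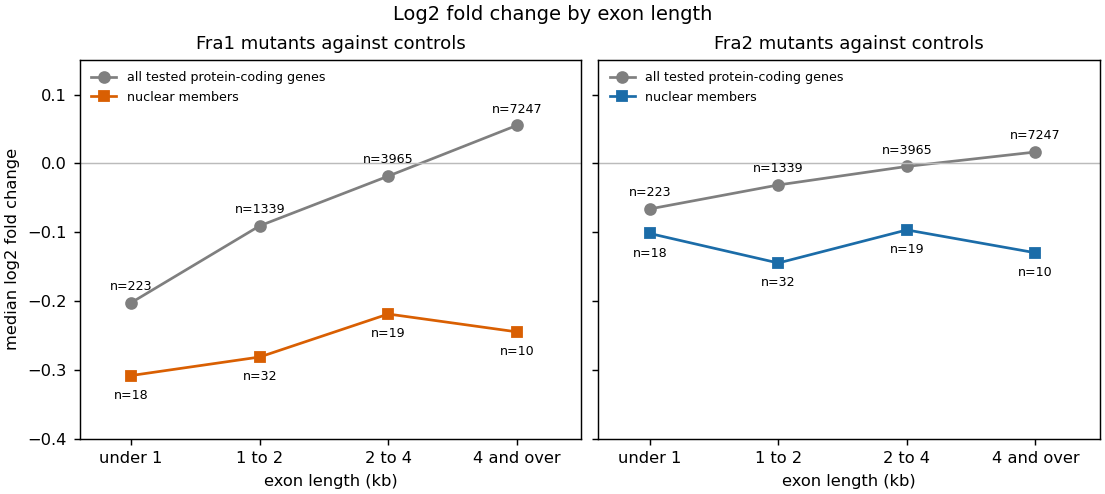
Median log2 fold change of all tested protein-coding genes (grey) and of the nuclear members (coloured) in 4 classes of exon length, in Fra1 (left) and Fra2 (right), with the number of genes beside each point. The members' medians lie below those of all genes in each class, from -0.31 to -0.22 in Fra1.

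Cell type markers were read beside these values. The hepatocyte list (Alb, Apoa1, Ttr, Hnf4a, Serpina1a, Cps1, Tat) summed to 81222 to 117575 CPM in Fra1 controls and 50342 to 104137 in Fra1 mutants, which overlapped. In Fra2 it summed to 100058 to 123390 CPM in controls and 53117 to 67664 in mutants, which did not, but most of this gap was albumin: Alb had a mean of 92123 CPM in Fra2 controls and 44438 in mutants. The median log2 fold change of the 7 genes was -0.41 in Fra1 and -0.07 in Fra2. By edgeR 0 of them were called in either strain, against 3.84% of all genes in Fra1 and 1.07% in Fra2. At an unadjusted edgeR p under 0.05 there were 4 in Fra1 and 3 in Fra2, against 16.3% and 11.5% of all genes. DESeq2 called 0 and 2, and limma-voom 0 and 0. The shares of all genes that these 2 methods called are not given here, so the 2 calls by DESeq2 are printed without a background.

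Markers of other cells went up in Fra1 for some lists. Stellate cell markers rose for 2 of 6 genes by edgeR, Dcn and Lum, against 3.84% of all genes called in either direction. The stellate list, with a median of 0.43, summed to 196 to 226 CPM in Fra1 controls and 314 to 357 in Fra1 mutants. In Fra2 the stellate list summed to 287 to 305 CPM in controls and 223 to 290 in mutants, which overlapped. Its Fra2 median was -0.17, with 4 of 6 genes below 0. The Fra2 controls thus lay above the Fra1 controls for this list. The recruited myeloid list (Ccr2, Ly6c2, Cx3cr1, Itgam, Lyz2) had the highest Fra1 median of the marker lists, 1.223, while its sum of 49.6 to 92.3 CPM in controls and 49.2 to 87.1 in mutants overlapped. By edgeR, DESeq2 and limma-voom 0 of its 5 genes were called, and 2 had an unadjusted edgeR p under 0.05, against 16.3% of all genes. The 2 tested neutrophil genes had a median of 0.87 in Fra1. The erythroid list summed to 287 to 394 CPM in Fra1 controls and 155 to 244 in Fra1 mutants, although 1 of its 5 genes had a log2 fold change below 0 and the median was 0.10. The part of these cell types in the subunits' values was not tested.

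Genes that build, fill or regulate the chain were read for comparison. Over 121 tested genes of 11 lists, edgeR called 1 in each strain, against backgrounds of 3.84% and 1.07% of all genes. At an unadjusted p under 0.05 there were 16 in Fra1 and 5 in Fra2, against 16.3% and 11.5% of all genes. DESeq2 called 4 and 1, and limma-voom 1 and 1, and the shares of all genes called by these methods are not given here. The called gene was Coq8b, a kinase-like protein needed for coenzyme Q synthesis, and it rose. It had 16.9, 16.2 and 12.05 CPM in Fra1 controls and 37.9, 53.0 and 33.3 CPM in mutants, and 18.2, 14.3 and 12.3 CPM in Fra2 controls against 35.0, 31.1 and 33.2 CPM in mutants. The log2 fold changes were 1.46 (SE 0.20, adjusted p 0.00171) and 1.15 (SE 0.20, adjusted p 0.0195), without overlap in either strain; in Fra2 the call was lost in 5 of 21 alternatives (adjusted p 3.11e-05 to 0.0872).

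The assembly factor lists had Fra1 medians between those of all genes and of the nuclear subunits: -0.08 for complex I (14 genes), -0.12 for complex II (4), -0.12 for complex III (6), -0.12 for complex IV (20 tested) and -0.21 for complex V (4). None of these genes passed the edgeR test in either strain. The 3 subunits or carriers outside the symbol rule were Cyc1, Ndufab1 and Cycs, with a Fra1 median of -0.27; cytochrome c, Cycs, had 7.05, 6.19 and 5.65 CPM in Fra1 controls and 4.92, 4.11 and 5.33 CPM in mutants (log2 fold change -0.39, SE 0.18, adjusted p 0.311). Coenzyme Q genes had a Fra1 median of -0.11 (13 genes).

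Factors that copy and transcribe mitochondrial DNA had a Fra1 median of -0.07 (15 genes) and those that process mitochondrial RNA -0.11 (15). Tfam, which packages mitochondrial DNA, had 43.6 to 50.3 CPM in Fra1 controls and 42.1 to 51.2 in Fra1 mutants. Ppargc1a, a coactivator of mitochondrial gene expression, had 3.66 to 9.78 CPM in Fra1 controls and 4.37 to 5.31 in mutants, and Polrmt and Lrpprc also overlapped in Fra1. The regulator list had a median of -0.04 (11 genes) in Fra1 and the 17 matrix and membrane reference genes -0.08. Among the latter, citrate synthase, Cs, had 181, 185 and 194 CPM in Fra1 controls and 163, 144 and 163 CPM in mutants, without overlap (log2 fold change -0.25, SE 0.10, adjusted p 0.221), and the pore protein Vdac1 overlapped.

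Promoters were read for the letters of factors known to act on such genes, since the members moved together in direction in Fra1. RefSeq windows of 250 bases before to 50 after the start (GRCm38.p6) were matched for 67 nuclear members. A gene counted as holding a match if any of its windows did, on either strand. GCGCATGC (NRF1) was held by 14.9% of members and 3.05% of 27025 genes in all, which were not limited to protein-coding genes. CCGGAAG (ETS) was held by 25.4% and 9.93%, AAGATGGC (YY1) by 13.4% and 3.19%, and TCAAGGTCA (ERR) by 2.99% and 0.466%. TGANTCA (AP-1), the letters of the family to which Fra-1 and Fra-2 belong, was held by 10.4% of members and 8.97% of all genes. The windows of Atp5g1, the called member, and of Uqcr11, with the smallest p in complex III in both strains, are printed with matches in capitals. Atp5g1 held the AP-1 letters and Uqcr11 those of ETS and NRF1 (on the opposite strand), and the matches do not overlap each other. These are matches of letters, not measured sites.
Atp5g1 promoter (chr11:96075582-96075881, minus strand): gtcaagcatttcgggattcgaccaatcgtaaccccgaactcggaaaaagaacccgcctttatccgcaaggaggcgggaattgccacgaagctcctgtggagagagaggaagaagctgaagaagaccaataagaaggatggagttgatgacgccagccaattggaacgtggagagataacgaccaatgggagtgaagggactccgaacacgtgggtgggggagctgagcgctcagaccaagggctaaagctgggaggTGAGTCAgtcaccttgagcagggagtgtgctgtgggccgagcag
Uqcr11 promoter (chr10:80406772-80407071, minus strand): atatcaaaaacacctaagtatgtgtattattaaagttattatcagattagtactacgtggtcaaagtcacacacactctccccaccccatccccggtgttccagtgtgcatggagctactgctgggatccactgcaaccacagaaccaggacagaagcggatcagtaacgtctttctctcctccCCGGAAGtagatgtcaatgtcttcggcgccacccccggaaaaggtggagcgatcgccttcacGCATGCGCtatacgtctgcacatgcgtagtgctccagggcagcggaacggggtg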

How the data were processed

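The authors deposited raw counts per gene, whole numbers with no normalization, for 12 polyadenylated, stranded liver libraries. The submitters' processing notes name GRCm38 (mm10), DESeq2 1.22.2, bedtools 2.27.1, RSEM and STAR 2.6.1a. The sources used here do not say which tool counted, with which annotation and strand setting, or how reads matching several genes were handled, so paralogs and overlapping genes are uncertain. Totals were 16834041 to 20464807 counts. PCR copies cannot be told from molecules, so limits on a count of 0 cover counting error only. Chi-square tests of the 12 pairs of libraries within groups found none within sampling noise.

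Groups came from the titles. In R 4.3.3, edgeR 4.0.16 fitted 12 libraries with 4 group means (filterByExpr, TMM factors, robust quasi-likelihood), with two-sided tests and Benjamini-Hochberg adjustment over 14076 genes; SEs come from the test statistic. Alternatives were RLE factors, no scaling factor, scaling without mt- genes, limma-voom (limma 3.58.1), DESeq2 1.42.0, no filter, at least 1 CPM in 3 libraries, only the libraries compared, the replicate block and each library left out. The fit was tested on simulated counts with 200 changed genes. Coordinates and exon lengths are from GENCODE M21 (GRCm38), where all 99 members matched by identifier; promoters are from RefSeq. Stretches of 50 bases were compared between annotated transcripts.

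Members, lists and the naming rule were chosen with earlier results of these data known. Named are Fosl1, Fosl2, all mt- members, called members, up to 3 nuclear members per complex and strain with the smallest p, the most abundant per complex, isoform families, members failing the filter, and set pathway genes. Markers and pathway lists are given as counts and medians. No p was computed for sums or lists. A result for 1 gene is not reported here.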

Additional observations from a re-analysis of the deposited data

Results flagged for a closer look

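Gm28437, the chromosome 1 copy of mt-Co3, is outside the members and had 143 counts in Fra2 mutant 1, against 0 to 5 in every other library and at most 3 in the controls. It was singled out because that count stands above all control libraries. mt-Co3 itself had 0 counts in the same library.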

How the results depend on the processing

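The count of members called in Fra1, 1 by edgeR with TMM, was 0 with no scaling factor, with limma-voom, without the filter, with only the libraries compared and with the replicate block, and 3 with DESeq2 (Atp5g1, Atp5g3 and Cox7a1). The share of all genes that DESeq2 called is not given here, so its 3 calls cannot be set against a background. With each library left out it ran from 0 to 1, and it was 0 without any single Fra1 library. The replicate numbers did not pair the samples: same-numbered mutants and controls correlated between -0.11 and 0.05, and with the replicate block the calls over all genes went from 540 to 371 in Fra1. The nuclear log2 sum in Fra1 mutants minus controls was -0.23, and -0.091 with no scaling factor; without each library it ran from -0.28 to -0.14. Nuclear members with all mutants below all controls numbered 20 in Fra1 and 1 in Fra2 with no scaling factor, against 48 and 2; that check was chosen after seeing the data. Calls in Fra2, for the difference and between the controls stayed at 0 under all alternatives run. Over the single-gene values printed, 709 stayed on their side of the threshold in the same direction, 20 lost it (Atp5g1 in Fra1, Coq8b in Fra2), 2 gained it and none changed sign. The nuclear median in Fra1 ran from -0.36 to -0.15 with a library left out and that in Fra2 from -0.23 to -0.04. Depth limits Cox7a1, Atp5g2 and the members that failed the filter.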
